A study of Ailuropoda melanoleuca with 25 samples.

Results

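The transcription factor genes described here are the 65 genes, of 25376 in the deposited expression table of the giant panda, that the study lists as specific to a tissue and whose names fall in families known for specifying organs, among them HOX, FOX, GATA, SOX, TBX, NKX, PAX, LHX, HAND, POU, RUNX, IKZF, TFAP, TLX, IRX, BATF, ONECUT and nuclear receptors named NR followed by a number. NR5A1 was left out by the rule. The lists hold 2814 genes, of which 1778 carry a name. They were selected on the same libraries by comparing each tissue with the other 4. The difference between a listing tissue and the others is therefore given below as a description and not as a test. The HOX genes were the largest family with 21 members, followed by FOX with 5 and TBX with 4. The kidney list held 30 members, the spleen list 13, the liver list 10, and the heart and lung lists 8 each, and 4 of the 65 were listed for 2 tissues, which gives 69 listings.

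RNA was sequenced from 5 tissues (kidney, spleen, liver, lung and heart) of 5 giant pandas that died of disease, 1 library for each tissue and animal. Panda 1 was a 27-year-old female with ovarian cancer and panda 2 a 9-year-old female whose cause of death was recorded as ileac pssion. Pandas 3 and 4 were females and panda 5 a male of 0.5 years, all 3 with coronavirus infection. Age, cause and year of death therefore cannot be told apart. Values are FPKM, fragments scaled by gene length and by the size of the library, and are given for pandas 1 to 5 in that order. Means carry the SD over 5 libraries. Whole tissue was sequenced, so fewer cells of a type and less RNA per cell cannot be told apart.

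Organ identity in vertebrates is set by combinations of such factors. HOX genes lie in 4 clusters, named HOXA to HOXD, and their order along each cluster follows the head-to-tail level at which they are active in the embryo, with high paralogue numbers toward the tail. Many of the other families act earlier or later in a single organ rudiment, such as PAX2 and PAX8 in the kidney, NKX2-1 in the lung and thyroid, TLX1 in the spleen and HAND2 in the heart.

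The libraries held between 13053066 and 21124672 reads on genes, with a median of 15877013, and 1 read of a member was worth 0.0355 to 0.164 FPKM. A level of 0 allowed up to 3 reads, or 0.0795 to 0.608 FPKM depending on the gene and library (counting error only). There were 3 libraries that stood apart from the rest of their tissue, namely kidney replicate 4, liver replicate 3 and lung replicate 4. Results that rest on them are given with and without them. The markers of heart muscle, hepatocytes, B cells, T cells, lung epithelium and kidney tubule each summed higher in every library of their own organ than in any other library, with the 4 heart muscle genes MYL2, TNNT2, TNNI3 and ACTN2 summing to at least 42374 FPKM in every heart and at most 50.5 FPKM elsewhere. The marker genes with an identifier all come from the study's own lists.

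The names did not always mean a high level. Of the 69 listings, 59 were of genes whose mean was higher in the listing tissue than in each other tissue, 5 were of genes lowest there, and 5 were of genes that lay between. In 46 listings the listing tissue passed the study's thresholds against each of the other 4 tissues in the fit used here. Those thresholds were an adjusted p under 0.05 with a difference of over 2 on the log2 scale. The lists were made on these same contrasts, so the count of 46 is a description and not a test. No share over all genes was taken for it. In 54 listings the 5 libraries lay wholly outside the range of the other 20 libraries, 51 above and 3 below. Among all genes with a mean above 1 FPKM in the tissue this was so for 2.81% in the kidney, 5% in the lung, 6.63% in the spleen, 8.63% in the heart and 8.68% in the liver. These shares stand beside the counts only for scale, because the same contrasts chose the members. Without the 3 libraries that stood apart, the count was 60 listings.

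**Figure D1:**
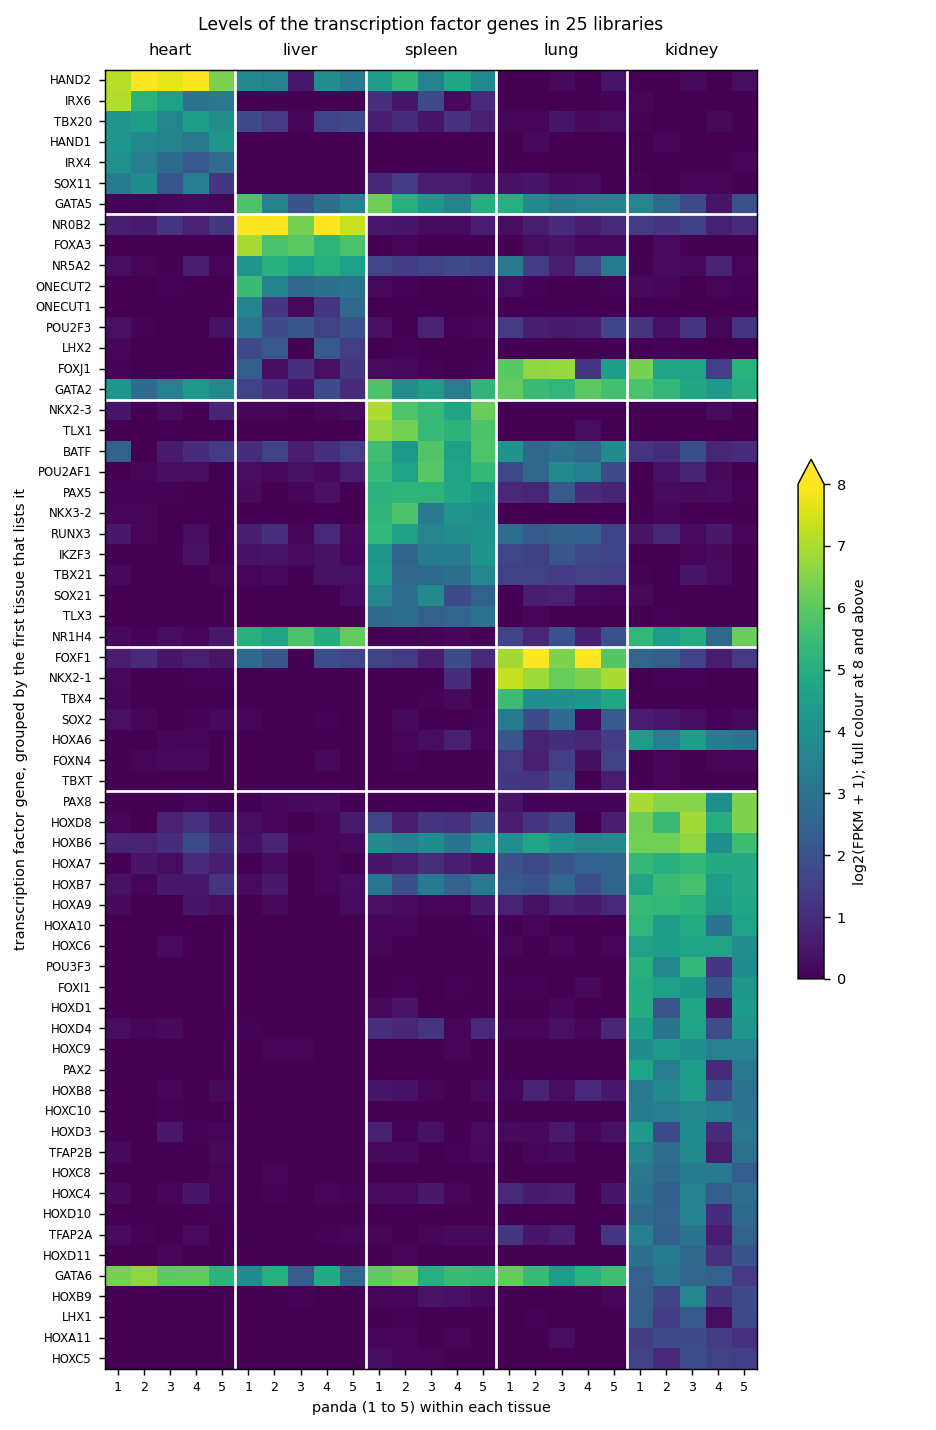
Heat map of the transcription factor genes (rows, grouped by the first tissue that lists them) in the 25 libraries (columns, pandas 1 to 5 within each tissue), coloured by log2(FPKM + 1). The bright blocks follow the lists, with exceptions. The rows GATA5, FOXJ1, GATA2, NR1H4 and GATA6 are darker in the tissue that lists them than in others. The HOXA6 row, drawn with the lung list, is brighter in the kidney, which also lists it. Kidney 4 is a dark column for many kidney genes.

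In the heart, HAND2 was the most abundant member. HAND2 is a basic helix-loop-helix factor of the developing ventricles and stood at 143, 281, 205, 276 and 84.8 FPKM in the 5 hearts. All hearts lay above the 5 spleens, at 20.1, 36.6, 11.2, 25.8 and 13.3 FPKM, and above the livers, of which 4 held 9.02 to 14.1 FPKM and replicate 3 0.432 FPKM, while the lungs and kidneys held at most 0.381 FPKM. HAND1, its relative, stood at 17.4, 12.6, 10.95, 8.2 and 17.5 FPKM in the hearts and was at 0 in every liver and spleen. HAND1 and HAND2 thus differed outside the heart, with HAND2 present in the spleen and liver and HAND1 in neither.

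TBX20, a T-box factor of the heart chambers and valves, stood at 17.1, 21.5, 11.7, 20.5 and 14.4 FPKM in the hearts. It was also listed for the liver, where it stood at 2.46, 1.5, 0.0795, 2.04 and 2.59 FPKM. The spleens held 0.381 to 1.22 FPKM, so the livers and spleens differed by 0.53 on the log2 scale, the second smallest separation of any listing, and their libraries overlapped. IRX6 varied widely among hearts, with 134, 34.2, 22.5, 6.96 and 8.28 FPKM. The 2 older pandas held the highest values. IRX6 was listed for the spleen as well, at 1.1, 0.392, 2.44, 0.15 and 0.952 FPKM, far below the hearts. IRX4, which maintains the ventricular programme, had a mean of 8.21 ± 4.62 FPKM in the heart and was at 0 in all but a single kidney outside it. SOX11, a factor of embryonic progenitors, had a mean of 7.47 ± 5.05 FPKM in the heart, and its lowest heart, at 1.38 FPKM, fell below the highest spleen, at 1.56 FPKM.

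In the liver, the leading members were nuclear receptors and forkhead or cut factors of hepatocytes. NR0B2, the bile acid feedback repressor also called SHP, stood at 306, 521, 81.7, 440.5 and 164 FPKM in the livers and at no more than 1.88 FPKM in any other library. FOXA3, a forkhead factor that opens liver chromatin, stood at 123, 51.6, 62.1, 36.1 and 51.2 FPKM and was at 0 in all hearts. NR5A2, which drives bile acid synthesis genes, stood at 16.9, 32.8, 21.8, 32.1 and 22.1 FPKM. The next tissue for NR5A2 was the lung, where pandas 1 and 5 held 8.46 and 8.95 FPKM and the other lungs 0.537 to 2.15 FPKM. NR0B2 and NR5A2 were thus separate from every other tissue, by a wide and a narrow margin respectively.

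ONECUT2, a cut homeobox factor of hepatocytes and bile ducts, stood at 42.8, 11.1, 5.75, 6.77 and 7.38 FPKM. Panda 1 held the highest value by a wide margin. Its paralogue ONECUT1 stood at 11.1, 1.39, 0.12, 1.4 and 5.48 FPKM, with 0 reads in all 20 libraries of other tissues. LHX2, a LIM homeobox factor known from hepatic stellate cells, stood at 2.38, 3.55, 0.0419, 3.77 and 1.75 FPKM. POU2F3, the tuft cell factor, was listed at 3.75 ± 2.37 FPKM in the liver but reached 2.02 FPKM in a lung, so the groups overlapped.

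In the spleen the members fell into mesenchymal homeobox genes and lymphocyte regulators. NKX2-3, needed for the spleen's vessels, stood at 131, 54.3, 41.5, 24.9 and 71.5 FPKM, and TLX1, without which no spleen forms, at 104, 79.9, 40.9, 35.2 and 53.3 FPKM. Neither gene exceeded 0.682 FPKM in any other library. NKX3-2, also required for spleen growth, had a mean of 26.1 ± 18.3 FPKM, and TLX3 and SOX21, better known from neurons, had means of 5.79 ± 0.976 and 7.68 ± 4.58 FPKM. The levels of TLX3 were the steadiest of these, from 4.57 to 7.01 FPKM.

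The lymphocyte regulators of the spleen list were also measured in the lung. BATF, an AP-1 factor of activated lymphocytes, stood at 46.1, 18.0, 55.8, 22.6 and 54.6 FPKM in the spleens and at 16.6, 5.48, 6.98, 5.3 and 13.5 FPKM in the lungs. POU2AF1, a B cell coactivator that both the spleen and the lung list, stood at 41.3, 23.3, 60.0, 24.4 and 40.3 FPKM in the spleens. Its lungs held 2.32, 5.43, 12.8, 9.68 and 2.54 FPKM, all below the spleens and above the other tissues. PAX5, the B lineage commitment factor, had means of 30.5 ± 7.36 FPKM in the spleen and 1.41 ± 1.32 FPKM in the lung. The lymphoid factors IKZF3, RUNX3 and TBX21 showed the same order, with spleen means of 11.5 ± 5.6, 20.5 ± 10.7 and 9.63 ± 5.7 FPKM and lung libraries from 1.65 to 6.29 FPKM. The B cell markers moved with these genes, their 5 genes summing to 361 to 757 FPKM in the spleens, 21.5 to 90.0 FPKM in the lungs and at most 13.9 FPKM elsewhere. The 4 T cell markers summed to 166 to 1597 FPKM in the spleens, 42.2 to 95.1 FPKM in the lungs and at most 8.41 FPKM elsewhere. The part of these cells in the levels of the 6 regulators was not tested.

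In the lung, FOXF1 and NKX2-1 led. FOXF1, a forkhead factor of lung mesenchyme and endothelium, stood at 119, 252, 87.0, 275 and 58.8 FPKM, and the highest library of any other tissue, a liver, held 5.67 FPKM. NKX2-1, which specifies lung epithelium and thyroid, stood at 157, 112, 68.8, 86.7 and 126 FPKM. Every lung lay far above the other 20 libraries for both genes. The highest NKX2-1 level outside the lung was 1.06 FPKM in spleen replicate 4. That library also held 99.3 FPKM of SFTPC and 19.3 FPKM of SFTPB, the surfactant genes of lung epithelium, against at most 6.07 and 1.13 FPKM in the other spleens. The part of another tissue in these levels was not tested.

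TBX4, the T-box factor of lung mesenchyme, stood at 43.7, 14.4, 15.2, 17.5 and 26.3 FPKM in the lungs and at most 0.121 FPKM elsewhere. SOX2, a factor of the airway epithelium, stood at 8.65, 2.65, 5.83, 0.145 and 3.81 FPKM. Lung replicate 4 lay below several libraries of other tissues for SOX2, and the mean of the other 4 lungs was 5.23 FPKM. FOXN4 and TBXT, the brachyury gene of early mesoderm, were the members with the lowest peak levels, with lung means of 1.22 ± 0.75 and 1.13 ± 0.913 FPKM. Both were low in lung replicate 4 too, at 0.222 and 0 FPKM.

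The kidney list was mostly HOX. All 21 HOX members had kidney means above 1 FPKM, from 1.87 FPKM for HOXC5 to 71.0 FPKM for HOXD8, and no liver mean passed 1 FPKM. Their summed level was 201 to 580 FPKM in the kidneys, 21.3 to 33.7 FPKM in the lungs, 15.2 to 28.5 FPKM in the spleens, 1.2 to 6.02 FPKM in the hearts and 0.221 to 1.77 FPKM in the livers. The kidneys did not overlap any other tissue, and the lungs and spleens overlapped each other.

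By cluster, the listed genes covered 5 of 11 HOXA genes, 4 of 10 HOXB genes, 6 of 9 HOXC genes and 6 of 9 HOXD genes of the RefSeq annotation of assembly ASM200744v3. HOXA6, HOXA7, HOXA9, HOXA10 and HOXA11 were consecutive there, as were HOXB6, HOXB7, HOXB8 and HOXB9, while the HOXD genes HOXD1, HOXD3, HOXD4, HOXD8, HOXD10 and HOXD11 were interrupted by HOXD9. The other HOX genes were not analysed here, since identifiers were paired with names only for genes the study lists. The listed genes reached paralogue group 11 in the HOXA and HOXD clusters, group 10 in HOXC and group 9 in HOXB. HOXA11 and HOXD11, paralogues required for kidney formation, had kidney means of 1.9 ± 0.549 and 5.11 ± 3 FPKM.

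The 4 most abundant HOX members of the kidney came from 3 clusters. HOXD8 stood at 76.5, 42.5, 119, 30.5 and 86.6 FPKM in the kidneys. HOXB6 stood at 76.8, 77.9, 101, 14.9 and 44.5 FPKM, and kidney replicate 4 lay within the range of the lungs, at 11.5 to 24.6 FPKM. HOXA7 was steadier, at 40.5, 33.0, 38.7, 28.5 and 28.9 FPKM, and HOXB7 stood at 24.6, 42.7, 49.5, 20.6 and 28.4 FPKM. The kidneys therefore lay above all other libraries for HOXD8, HOXA7 and HOXB7, and for HOXB6 only without kidney replicate 4, with a mean of 75.0 FPKM over the other 4.

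Levels of single HOX genes outside the kidney are given by cluster. In the lung the HOXB levels fell with the paralogue number, with means of 15.7 ± 5.19 FPKM for HOXB6, 3.88 ± 1.08 for HOXB7, 0.455 ± 0.326 for HOXB8 and 0.015 ± 0.0335 for HOXB9. The spleen had the same order down to HOXB8, with 11.8 ± 3.15, 6.48 ± 2.55 and 0.192 ± 0.159 FPKM, and HOXB9 at 0.195 ± 0.127 FPKM. In the HOXA cluster the lung held 1.52 ± 1.07 FPKM of HOXA6, 3.67 ± 1.09 of HOXA7, 0.586 ± 0.213 of HOXA9 and at most 0.0477 FPKM, as a mean, of HOXA10 and HOXA11. In the HOXD cluster the lung means were 0.0228 FPKM for HOXD1, 0.232 for HOXD3, 0.266 for HOXD4 and 0.918 for HOXD8, so HOXD did not share the order of HOXB. No test of position was run. The 8 members of paralogue groups 9 to 11 took 29.5% of the 22647 HOX reads in the kidneys, 3.01% of the 1364 in the lungs, 2.92% of the 1132 in the spleens, 6.81% of the 191 in the hearts and 14.3% of the 56 in the livers, the last of these resting on 8 reads. None of these 8 had a mean above 1 FPKM outside the kidney, the highest being HOXA9 in the lung. HOXA6, listed for the lung as well as the kidney, stood at 3.3, 0.713, 1.07, 0.825 and 1.69 FPKM in the lungs and at 20.1, 9.5, 20.9, 8.91 and 7.54 FPKM in the kidneys. The HOXA6 lungs lay above every spleen, heart and liver and below every kidney.

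Several HOX genes were nearly confined to the kidney, and not in the HOXC cluster alone. HOXA10, HOXD10 and HOXD11 reached at most 0.0833, 0.0552 and 0.0846 FPKM in any library of another tissue. HOXC6, HOXC8, HOXC9 and HOXC10 had kidney means of 21.4 ± 4.32, 7.1 ± 2.1, 13.8 ± 3.63 and 9.53 ± 1.69 FPKM, and none of them exceeded 0.171 FPKM in another tissue. HOXC10 had no read in any liver, spleen or lung. HOXC4 and HOXC5 had kidney means of 6.54 ± 2.54 and 1.87 ± 0.665 FPKM. HOXC4 reached 0.853 FPKM in a lung. The remaining HOXA, HOXB and HOXD members had kidney means of 32.0 ± 9.66 FPKM for HOXA9, 23.4 ± 11.2 for HOXA10, 10.4 ± 6.78 for HOXB8, 4.43 ± 4.22 for HOXB9, 15.6 ± 13.2 for HOXD1, 8.83 ± 7.46 for HOXD3, 14.6 ± 9.2 for HOXD4 and 5.54 ± 3.39 for HOXD10. The spread was wide in the HOXD genes, where kidneys 2 and 4 lay lowest for HOXD1, HOXD3 and HOXD4.

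**Figure D2:**
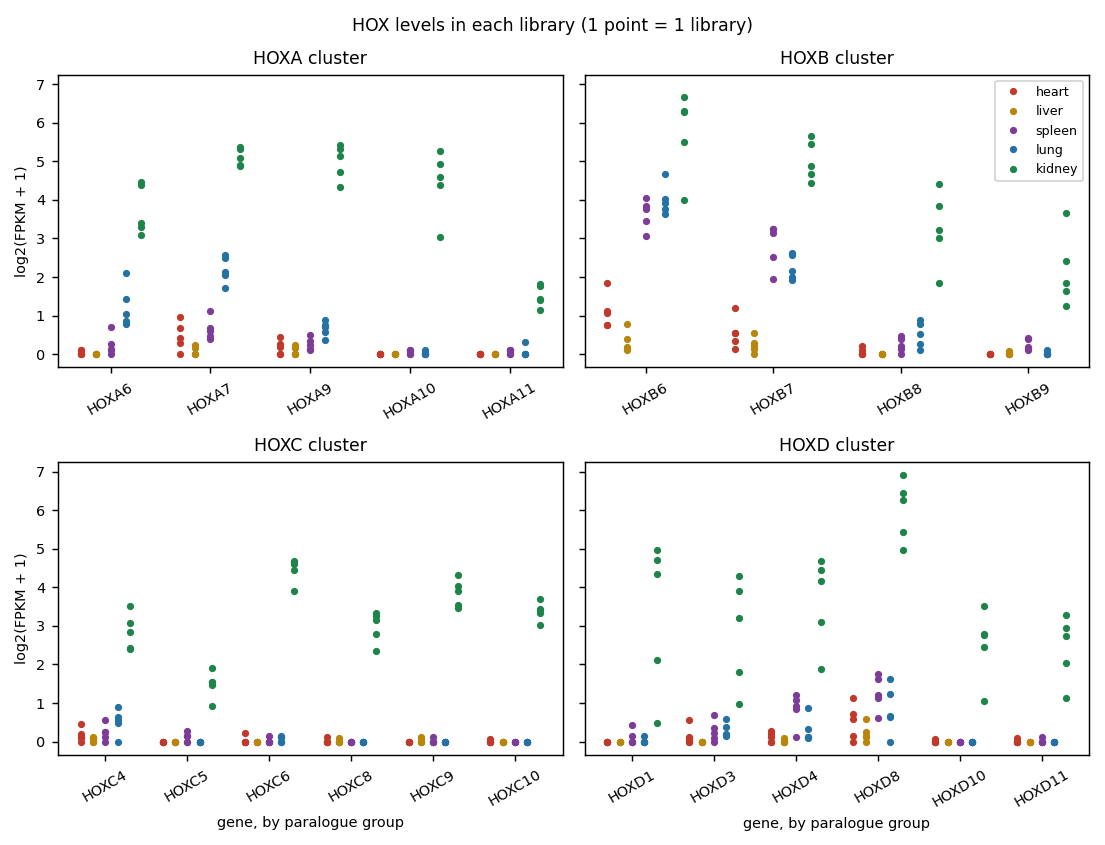
HOX members by cluster (panels) and paralogue group (x axis), with log2(FPKM + 1) on the y axis and 1 point for each library, coloured by tissue. Kidney points lie highest for every gene, apart from kidney 4 for HOXB6, and lung and spleen points descend from HOXB6 to HOXB8.

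HOX members listed for the kidney alone could be tested between the lung and the heart, liver and spleen, since those pairs did not choose them. Of the 20 such members, 3 passed the filter of a mean above 1 FPKM in either tissue for lung against heart, 3 for lung against liver and 4 for lung against spleen. HOXA7, HOXB6 and HOXB7 were higher in the lung than in the liver, 1 of these, HOXB6, was higher in the lung than in the heart, and 0 were higher in the lung than in the spleen (limma, Benjamini-Hochberg adjusted p below 0.05 and a difference beyond 2 on the log2 scale). Against the liver HOXB6, HOXA7 and HOXB7 passed the filter through the lung alone, as did HOXA7 and HOXB7 against the heart and HOXA7 against the spleen, so a call there could only be higher in the lung and nothing is read from the count. Between lung and spleen, HOXA7 differed by 1.54 ± 0.222 (SE) on the log2 scale, short of the threshold (limma, adjusted p = 0.000244). Since HOXA7 entered that pair through the lung alone, nothing is read from this p-value either. Across all genes, 19.5% were called higher in the lung than in the heart, 25.7% than in the liver and 4.03% than in the spleen. The median gene of the table was higher in the lung than in the heart by 1.17 log2 units and than in the liver by 1.28. Library scaling by trimmed mean of M values (TMM) takes out such shifts. With it HOXB6 alone was called higher in the lung than in the liver (log2 2.67, limma adjusted p = 1.16e-05). No HOX member was called higher in the lung than in the heart. HOXB6 entered the liver pair through the lung alone here too, so nothing is read from that call or its p-value.

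The other kidney members were factors of nephron formation and of single nephron segments. PAX8, a paired-box factor of the nephron and the thyroid, stood at 126, 92.4, 93.2, 14.7 and 86.1 FPKM in the kidneys and at most 0.356 FPKM elsewhere. Kidney replicate 4 was by far the lowest kidney for PAX8, yet still far above the other tissues. PAX2 and LHX1, which act in the nephron's earliest stages, had means of 12.6 ± 9.43 and 2.44 ± 1.59 FPKM. POU3F3, a factor of the loop of Henle, had a mean of 19.9 ± 15.7 FPKM and no read in any of the other 20 libraries. TFAP2A and TFAP2B, AP-2 factors of the distal nephron, had means of 5.34 ± 3.53 and 7.53 ± 4.71 FPKM, with TFAP2A also present in the lung at up to 1.33 FPKM. FOXI1, the factor of intercalated cells, stood between 3.25 and 29.6 FPKM in the kidneys and at most 0.121 FPKM elsewhere.

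GATA5, GATA2, GATA6 and NR1H4 were among those lowest in the tissue that lists them. GATA5, a zinc finger factor of endoderm and heart, was listed for the heart with 0.0505 to 0.154 FPKM there, and held 3.2 to 53.5 FPKM in the livers, 11.2 to 76.1 FPKM in the spleens, 9.14 to 31.1 FPKM in the lungs and 0.372 to 11.6 FPKM in the kidneys. GATA2, a factor of blood progenitors and endothelium, had a mean of 1.38 ± 0.896 FPKM in the liver, which lists it, and 6.02 to 66.1 FPKM elsewhere. GATA6, a relative of GATA5 in heart, lung and endoderm, stood at 1.53 to 7.76 FPKM in the kidneys and at 34.9 to 102 FPKM in the hearts. The GATA6 kidneys overlapped the livers, at 3.86 to 31.0 FPKM.

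NR1H4 (ENSAMEG00000015232), the bile acid receptor FXR, was listed for the spleen, where it stood at 0, 0, 0.0504, 0.0907 and 0 FPKM. The hearts, at 0.161, 0.0446, 0.208, 0.0817 and 0.425 FPKM, differed from the spleens by 0.20 on the log2 scale, the smallest separation of any listing, and the libraries overlapped. NR1H4 was high in the livers, at 31.1, 24.5, 52.1, 30.1 and 66.6 FPKM, and in the kidneys, at 38.3, 20.5, 29.2, 5.36 and 72.3 FPKM. The lungs lay between, at 2.07, 0.833, 3.04, 0.609 and 3.03 FPKM. FOXJ1 (ENSAMEG00000010217), the master factor of motile cilia, was listed for the liver at 4.33, 0.231, 1.13, 0.244 and 1.42 FPKM. Its levels were far higher in the lungs, at 61.4, 102, 107, 1.33 and 21.3 FPKM, and in the kidneys, at 82.7, 23.3, 24.0, 1.77 and 33.5 FPKM, and replicate 4 was the lowest library in each. Hearts and spleens held at most 0.17 FPKM of FOXJ1.

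Differences between tissues that did not list a gene were not the contrasts that listed it, and were tested with limma. They were not independent of the choice of members, since a listing compared each of those tissues with the listing tissue. Such tests were possible for 21 members, in 97 combinations of gene and tissue pair, and the remaining 44 members had no pair with a mean above 1 FPKM outside their listing tissues. A gene passed this filter only through a tissue where it was present, so the counts are given for the tested combinations and not as a share of the 65. Where the mean of 1 tissue of a pair lay below 1 FPKM, a call could only be higher in the other tissue. Among the calls named below, this held for NR1H4 in the heart, FOXJ1 in the heart and spleen, and HAND2 in the lung and kidney. It also held for HOXB6, HOXB7 and HOXA7 in the liver and for HOXB7 and RUNX3 in the heart. The filter fixed the direction of those calls, so nothing is read from it. Of the 97 combinations 30, in 11 genes, passed both thresholds.

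By tissue pair, the calls were 3 of 6 genes tested for heart against liver (all genes 15.7%), 2 of 7 for heart against spleen (23.3%), 5 of 15 for heart against lung (22.9%), 2 of 6 for heart against kidney (15.3%) and 3 of 9 for liver against spleen (29.9%). They were 6 of 14 for liver against lung (29%), 1 of 6 for liver against kidney (14%), 3 of 13 for spleen against lung (6.88%), 3 of 8 for spleen against kidney (14.3%) and 2 of 13 for lung against kidney (12.2%). The median gene of the whole table differed by up to 1.29 log2 units between tissues, in the pair of liver and spleen. With TMM scaling 23 combinations were called and with quantile normalization 22, and 19 of the original 30 were called in each of these.

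NR1H4 and FOXJ1 gave the largest differences at the main setting. NR1H4 was lower in the heart than in the liver by 5.05 ± 0.32 (SE) log2 units (limma, adjusted p = 9.38e-08) and lower in the heart than in the kidney by 4.47 ± 0.506 (limma, adjusted p = 1.1e-05). It was higher in the liver than in the lung by 3.85 ± 0.381 (limma, adjusted p = 4.96e-06) and higher in the kidney than in the lung by 3.26 ± 0.55 (limma, adjusted p = 0.000428). The libraries of each of these pairs did not overlap. By mean level the order of NR1H4 was liver and kidney, then lung, then heart and spleen, and liver and kidney overlapped each other. The lung exceeded the heart by 1.21 ± 0.271, short of the threshold (limma, adjusted p = 0.00129), and by 0.616 after TMM scaling. The place of the spleen rests on the contrasts that listed the gene.

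FOXJ1 was higher in the lung than in the heart by 5.01 ± 0.842 log2 units (limma, adjusted p = 0.000149) and than in the spleen by 4.92 ± 0.855 (limma, adjusted p = 0.00095). It was also higher in the kidney than in the heart by 4.43 ± 0.661 (limma, adjusted p = 0.000112) and than in the spleen by 4.34 ± 0.671 (limma, adjusted p = 0.000194). Leaving out kidney replicate 4, liver replicate 3 and lung replicate 4 raised these 4 differences to between 5.08 and 5.96. The ciliated airway markers CCDC39, RSPH1 and CAPS moved with FOXJ1 in the lung, summing to 68.7, 83.0, 127, 2.96 and 55.0 FPKM. In the kidneys the same markers summed to no more than 10.6 FPKM, close to the spleens at up to 10.2 FPKM, although the FOXJ1 levels of the kidneys and spleens did not overlap.

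HAND2 (ENSAMEG00000014235), listed for the heart, also separated the other tissues. It was higher in the spleen than in the kidney by 4.27 ± 0.317 log2 units (limma, adjusted p = 4.11e-07) and than in the lung by 4.23 ± 0.296 (limma, adjusted p = 6.15e-07). The liver exceeded the kidney by 2.93 ± 0.549 (limma, adjusted p = 0.00124) and the lung by 2.9 ± 0.547 (limma, adjusted p = 0.000504). Liver replicate 3, at 0.432 FPKM, was the only liver under 9 FPKM, and without the 3 libraries that stood apart the liver differences were 3.54 and 3.49. The heart muscle markers summed to at most 25.03 FPKM in the spleens and 16.2 FPKM in the livers.

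HOXB6 had 4 calls. It was higher in the lung than in the liver by 3.69 ± 0.269 and in the spleen than in the liver by 3.31 ± 0.253 (limma, adjusted p = 5.42e-07 and 7.14e-07). HOXB6 had a liver mean of 0.272 FPKM. It entered these pairs through the lung or the spleen alone, so nothing is read from these p-values. Its excess over the heart was 2.91 ± 0.268 in the lung and 2.53 ± 0.258 in the spleen, and neither passed the log2 threshold after TMM scaling, at 1.72 and 1.45.

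The calls of GATA5, GATA6, HOXB7, BATF, RUNX3 and HOXA7 lay between 2.02 and 2.71 log2 units. GATA5 was higher in the spleen than in the kidney by 2.71 ± 0.581 (limma, adjusted p = 0.00197), with overlapping libraries. GATA6 was higher in the heart than in the liver by 2.3 ± 0.536 (limma, adjusted p = 0.00422) and fell to 1.94 without liver replicate 3, which ended the call. HOXB7 was higher in the spleen than in the liver by 2.59 ± 0.275 and than in the heart by 2.27 ± 0.289, and higher in the lung than in the liver by 2.02 ± 0.21. BATF was higher in the lung than in the heart, liver and kidney by 2.19 ± 0.443, 2.11 ± 0.347 and 2.06 ± 0.359. RUNX3 was higher in the lung than in the heart by 2.12 ± 0.234, and HOXA7 in the lung than in the liver by 2.12 ± 0.203. For HOXB7, RUNX3 and HOXA7 the lower tissue of each called pair had a mean below 1 FPKM. Those calls could only go in the direction given. The GATA6, HOXB7, BATF, RUNX3 and HOXA7 calls were each lost after TMM scaling and after quantile normalization. Among the calls these scalings added was GATA5, higher in the liver than in the kidney, and TMM added GATA6, higher in the heart than in the lung. Leaving out single pandas ended the HOXB7 call of liver against lung (without replicate 3 or 5, -1.88 and -1.96, liver minus lung), the BATF call of liver against lung (without replicate 1, -1.85) and the BATF call of lung against kidney (without replicate 1 or 5, 1.845 and 1.85).

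**Figure D3:**
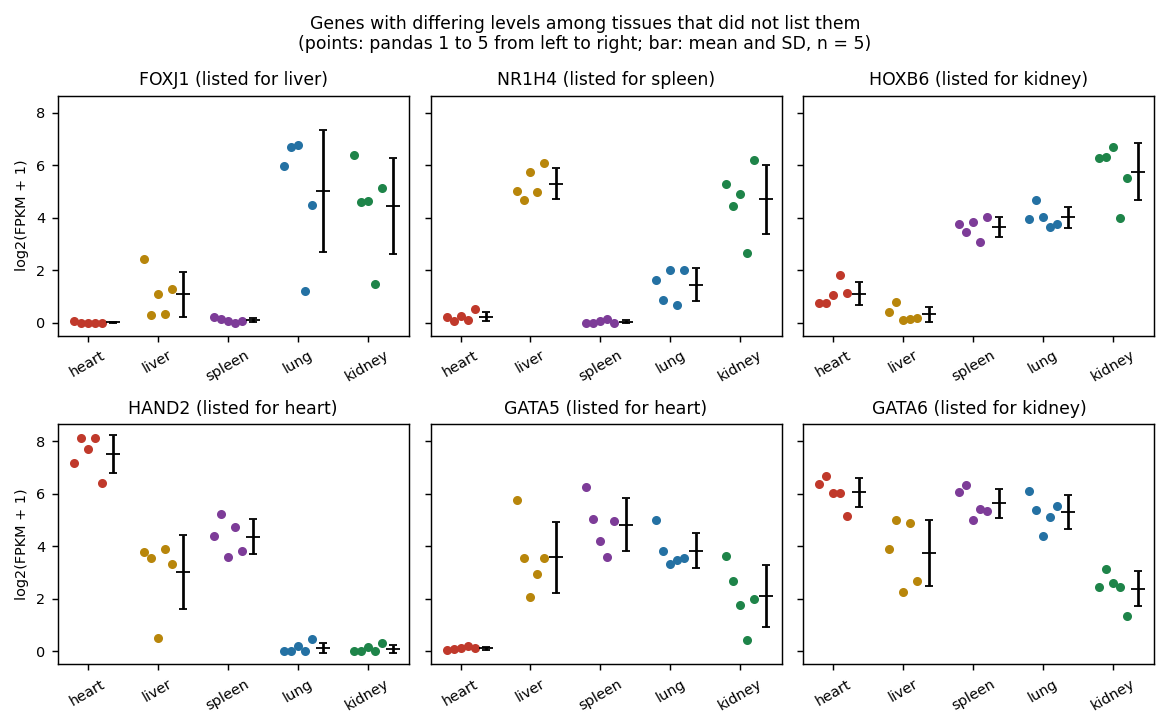
Levels of 6 genes as log2(FPKM + 1) in the 5 tissues, with points for pandas 1 to 5 from left to right and bars for the mean and SD of 5 libraries. FOXJ1 is high in the lung and kidney but for replicate 4, NR1H4 in the liver and kidney, and HAND2 in the heart, spleen and liver but for liver 3, and HOXB6 in the kidney, lung and spleen, while GATA5 is near 0 in the heart.

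**Figure D4:**
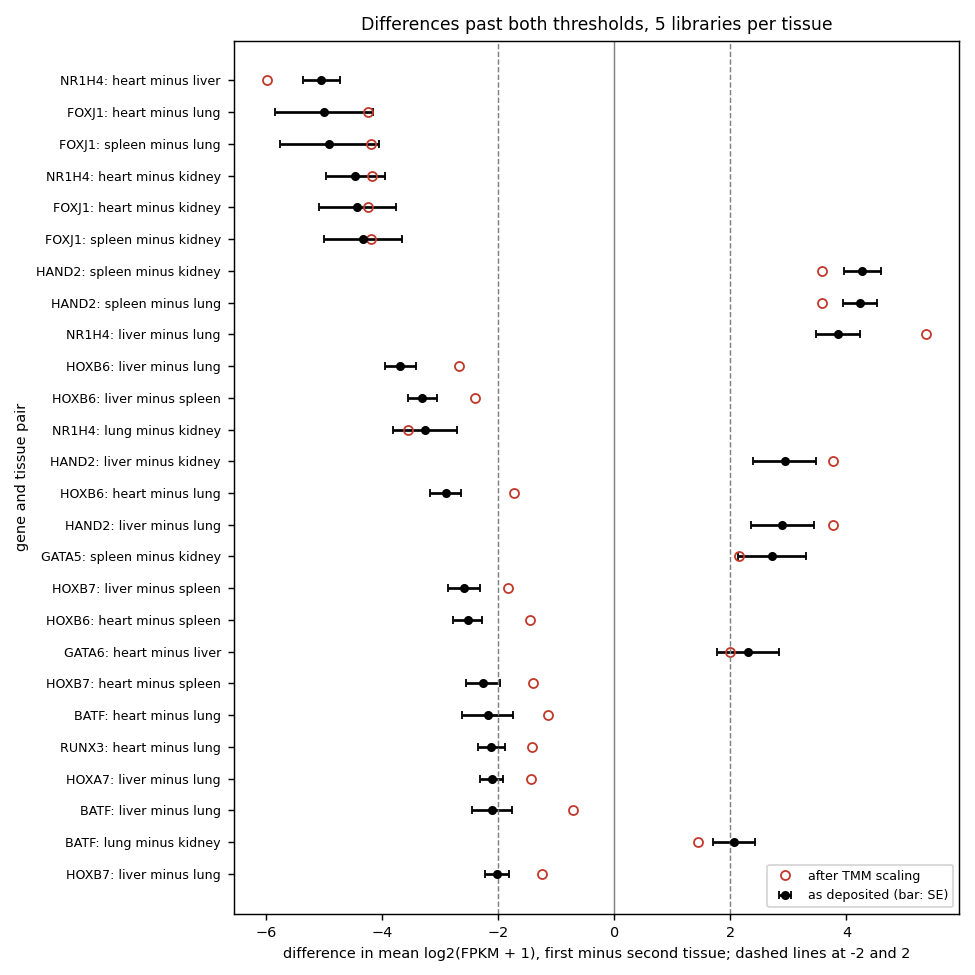
Called differences between tissues that did not list the gene, first minus second tissue on the log2(FPKM + 1) scale. Filled points with SE bars are the deposited values, open circles the TMM-scaled ones, and dashed lines mark -2 and 2. A total of 11 open circles lie inside the dashed lines.

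Kidney replicate 4 divided the kidney list by family. In that library 2909 genes of 15173 with a kidney mean above 1 FPKM, or 19.2%, lay below 0.5 times the lowest other kidney. Of the 38 members above 1 FPKM in the kidney, 21 did so. Among the 29 kidney-listed members that were highest in the kidney, all 8 outside the HOX family did, with kidney replicate 4 at 0.0583 (TFAP2B) to 0.165 (FOXI1) of the median of the other kidneys. Of the 6 HOXD genes 5 did, and the 6 ratios ran from 0.0175 (HOXD1) to 0.374 (HOXD8). So did 2 of the 4 HOXB genes and 1 of the 5 HOXA genes. None of the 6 HOXC genes did, and their ratios ran from 0.625 (HOXC4) to 1.24 (HOXC8) with a median of 1.05. For scale, the median gene with a kidney mean above 1 FPKM stood at 0.637 of the median of the other kidneys.

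Single genes show the contrast within this library. HOXD1 stood at 30.2, 3.35, 24.9, 0.387 and 19.3 FPKM in the kidneys, so panda 2 was also low. HOXC6 stood at 23.4, 20.8, 24.1, 24.5 and 14.1 FPKM, with replicate 4 the highest. The 6 tubule markers summed to 2013, 709, 2158, 80.1 and 1173 FPKM and the 4 intercalated cell markers to 252, 170, 235, 28.8 and 198 FPKM, so replicate 4 was the lowest for both lists. UMOD, of the thick ascending limb, was at 15.4 FPKM there against 248 to 1217 FPKM. FOXJ1, NR1H4 and GATA5, which the kidney does not list, were low in the same library, at 0.0616, 0.159 and 0.0887 of the median of the others. The part of the tubule in the levels of these members was not tested.

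Liver replicate 3 was low for most genes. There 46.5% of 12355 genes with a liver mean above 1 FPKM lay below 0.5 times the lowest other liver, and 8 of 18 members did, near that share. The median gene stood at 0.342 of the median of the other livers. LHX2, ONECUT1 and NR0B2 stood at 0.0141, 0.0348 and 0.219 of the others' median, and HAND2, TBX20 and FOXF1, of the heart and lung lists, at 0.0362, 0.0353 and 0.0133. FOXA3, POU2F3 and NR1H4 were not low, at 1.21, 1.23 and 1.7 of that median. Among hepatocyte markers, SERPINC1 and FGA were at 131 and 146 FPKM there against at least 1197 and 1109 FPKM in the other livers, while APOC3 was at 8211 FPKM against at most 2991 FPKM.

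In lung replicate 4 the fall was limited to few genes. Only 3.3% of 15858 genes with a lung mean above 1 FPKM lay below 0.5 times the lowest other lung, and the 4 of 25 members that did were FOXJ1, SOX2, FOXN4 and TBXT. FOXF1 was at 2.66 times the median of the other lungs, and NKX2-1 and TBX4 at 0.728 and 0.841 times. The 3 ciliated markers summed to 2.96 FPKM against at least 55.0 FPKM in the other lungs, and the 4 lung epithelium markers to 20916 FPKM, within the range of the others at 14546 to 48779 FPKM. The part of the airway in this library's levels was not tested.

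**Figure D5:**
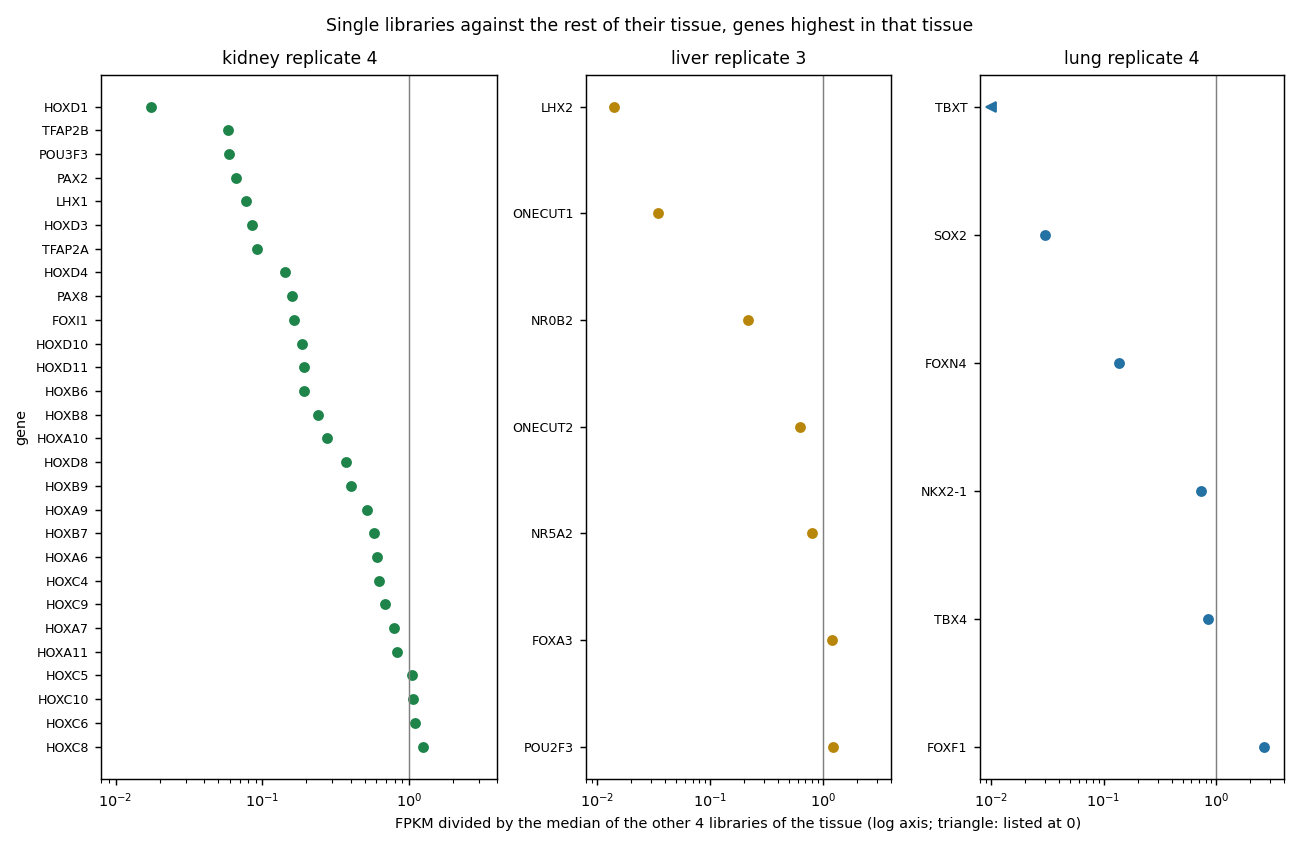
FPKM in kidney replicate 4, liver replicate 3 and lung replicate 4 divided by the median of the other 4 libraries of the tissue, on a log axis, for the genes that were highest in that tissue. In the kidney panel the HOXC genes lie between 0.625 and 1.24 and HOXD1 lowest at 0.0175. In the lung panel TBXT is drawn as a triangle because it was listed at 0.

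A second list held 19 transcription factors outside these families, taken from the same study lists and so chosen on the same contrasts. HEY2 had a mean of 78.9 ± 43.7 FPKM in the heart, ATF5 of 273 ± 216 in the liver, SPIB of 53.6 ± 6.47 in the spleen, HOPX of 1116 ± 352 in the lung and EMX1 of 47.3 ± 32.1 in the kidney. DACH1, listed for the liver, was lowest there with a mean of 0.35 FPKM against 2.23 to 13.0 FPKM in the other tissues, and MYCL, listed for the heart, was lowest there with 0.0499 against 1.23 to 8.51 FPKM. Kidney replicate 4 was low for EMX1 (3.5 against at least 37.5 FPKM) and SIM1 (0.348 against at least 1.4 FPKM). EVX1, which borders the HOXA cluster, had a kidney mean of 4.96 ± 2 FPKM and stood at 2.79 FPKM in kidney replicate 4 against at least 3.43 FPKM.

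The 3 young pandas were compared with the 2 older ones, which the rule had not used. With levels averaged over the 5 tissues, 0 of the 65 members were called (limma, adjusted p below 0.05), and 0% of 18701 genes were. An unadjusted p below 0.05 was found for 3 members, all lower in the young, GATA5 by 1.17 ± 0.393 log2 units, GATA6 by 0.85 ± 0.317 and FOXF1 by 0.76 ± 0.307 (limma, smallest adjusted p = 0.617). Across all genes 6.92% had an unadjusted p below 0.05 in this comparison. Within the listing tissue 66 listings were tested and 0 were called, as were 0% of all genes in each of the 5 tissues. By limma-voom on reads recovered from the FPKM steps 0 were called too. An unadjusted p below 0.05 was found for 5 listings by limma and for 5 by limma-voom.

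By limma the 5 were IRX4 and IRX6 in the heart and NKX3-2, RUNX3 and TLX1 in the spleen. NKX3-2 stood at 36.4 and 53.2 FPKM in the older spleens and at 8.77, 16.9 and 15.2 FPKM in the young ones, lower in the young by 1.67 ± 0.345 (limma, adjusted p = 0.248). TLX1 differed by 1.08 ± 0.257 and RUNX3 by 1.03 ± 0.301 in the same direction, and in each of these 3 genes all young spleens lay below both older ones. These 3, of 12 spleen listings tested, were picked by p-value in this same comparison, so the separation adds nothing to it. IRX6 in the heart was lower in the young by 2.52 ± 0.676 (limma, adjusted p = 0.999) and IRX4 by 1.1 ± 0.376. Across all spleen genes 10.6% had an unadjusted p below 0.05, and across all heart genes 4.41%.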

How the data were processed

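Per the labels and the study's methods, the authors aligned paired-end reads of 25 libraries to the panda assembly ailMel1 with HISAT2, assembled transcripts with Cufflinks, counted with HTSeq and deposited FPKM per gene; no column belonged to samples of other series. The FPKM were used as deposited. Whole reads were recovered from the FPKM steps for 24205 of 24207 genes (within 0.05 reads). Differences were tested with limma 3.58.1 (R 4.3.3) on log2(FPKM + 1), without pairing, in genes with a mean above 1 FPKM in either tissue, with Benjamini-Hochberg adjustment over all genes tested. Log2 differences understate the change of low genes. Libraries of 1 tissue came from separate animals. The same animal gave all 5 tissues: deviations correlated above 0.1 in 49 of 50 same-animal pairs of tissues (median 0.367). Scripts were tested on data with known answers.

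The 65 members and all lists were chosen with earlier results of these data known. Names were paired with gene identifiers through the study's supplementary list, read from page images, so a misread pairing could go unseen. Some members and markers are not reported here by name; they remain in the counts. Every other member is named. Values by library are given for the 4 most abundant members highest in each listing tissue (6 in the kidney), the members 2 tissues list, the 3 with the largest difference among tissues that did not list them and the 2 with the smallest separation. Libraries standing apart, and values in them, were singled out after their values were seen. Unlisted genes of the same families were not analysed here. Neither TMM nor quantile scaling entered the reported values unless named. Tables were made with Python 3.11.15 and pandas 2.3.3.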

Additional observations from a re-analysis of the deposited data

Results flagged for a closer look

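Of the 69 listings, each with 5 libraries of the listing tissue, 5 held a library far from the others by Dixon's ratio. For normally spread values chance alone gives this in about 1 group in 20, or 3.5 of 69. The ratio was taken on FPKM without logs, where high values stretch the range, so 3.5 is not a fair expectation here. All were high libraries. IRX6 in heart replicate 1 stood at 134 FPKM against 6.96 to 34.2 FPKM in the other hearts. ONECUT2 in liver replicate 1 stood at 42.8 FPKM against 5.75 to 11.1 FPKM, POU2F3 in the same library at 7.87 FPKM against 1.95 to 3.39 FPKM, and FOXJ1 there at 4.33 FPKM against 0.231 to 1.42 FPKM. HOXB9 in kidney replicate 3 stood at 11.7 FPKM against 1.39 to 4.32 FPKM. In 84 limma interaction tests of members, no difference between young and older pandas was called as differing between tissues (0 at an adjusted p below 0.05, 1 at an unadjusted p below 0.05). With 3 against 2 animals, these tests cannot show that the differences were alike.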

How the results depend on the processing

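With the pseudocount at 0.1, 54 member differences between tissues that did not list the gene were called in place of 30, and 57 by limma-voom on recovered reads, an alternative chosen after seeing the data. HOX members called higher in the lung than in the heart were 3 at the pseudocount 0.1 and by limma-voom, and 0 with quantile or TMM scaling, in place of 1. Against the liver they were 1 with quantile or TMM scaling in place of 3, and against the spleen 1 at the pseudocount 0.1 and by limma-voom in place of 0. Leaving out each replicate in turn gave 28 to 34 calls in all, 1 against the heart, 2 to 3 against the liver, 0 against the spleen, 0 between young and older pandas in either comparison, and 54 to 60 listings apart from the other tissues. TMM scaling left 59 such listings. Lost calls were GATA6 in heart against liver and HOXB7 in liver against lung without replicate 3 (1.94 and -1.88), HOXB7 in liver against lung and BATF in lung against kidney without replicate 5 (-1.96 and 1.85), and BATF in liver against lung and lung against kidney without replicate 1 (-1.85 and 1.845). With the panda as a replicate block, 30 differences were called, 30 of them shared, HOX calls were 1, 3 and 0, and 0 members were called between young and older pandas. No result reversed. The 0 calls between young and older pandas rest on 3 against 2 animals.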
